A study of Mus musculus with 14 samples.

Results

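The miRNAs described here are those of skeletal and heart muscle, measured by quantitative PCR in mouse plasma. They were chosen by name: every named well whose miRNA, read without its species prefix, arm suffix or asterisk, was miR-1, miR-133a, miR-133b, miR-206, miR-208a, miR-208b, miR-499 or miR-378. This gave 10 wells, each an assay of its own, out of 392 named wells and 768 wells in all per mouse. The assays were mmu-miR-1 and rno-miR-1, mmu-miR-133a, mmu-miR-133a* and rno-miR-133a*, mmu-miR-133b, mmu-miR-206, mmu-miR-499, mmu-miR-378 and mmu-miR-378*. The prefixes mmu and rno mark the mouse and the rat name of an assay, and the asterisk marks the minor strand of a hairpin. Together they cover 6 of the 8 names. The others, miR-208a and miR-208b, were not analysed here.

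Plasma came from 8 GEMM mice with OS and from 6 wild-type control mice, 1 sample per mouse. The methods describe more GEMM OS mice for the screen than were analysed here. The GEMM is a genetically engineered mouse in which Cre, driven by a Col-α1(I) promoter fragment active in osteoblasts, deletes floxed p53 alleles, and its tumor is osteosarcoma (OS), a cancer of bone. The methods describe mice with 1 or both alleles floxed, and the labels do not say which mice of the screen were which. Controls were wild-type littermates, which by the methods can carry Cre with intact p53, and the ages of single mice were not given. Blood was drawn by cardiac puncture, from the GEMM mice once a tumor had developed. The amount of muscle RNA released by the puncture was not measured, and its part in the levels below was not tested.

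Muscle miRNAs are transcribed largely in pairs. The genes of miR-1 and miR-133a lie close together and are transcribed as 1 precursor in skeletal and heart muscle, while miR-206 and miR-133b come from a single transcript of skeletal muscle. In muscle, miR-1 and miR-206 promote differentiation, and the miR-133 family affects proliferation of muscle precursors and repression of smooth muscle genes in the heart. miR-499 is made from an intron of a myosin heavy chain gene in heart and slow muscle. miR-378 is made from an intron of the gene for the coactivator PGC-1β and is not restricted to muscle, being present also in fat and liver. In plasma, muscle miRNAs are known as markers of muscle and heart injury.

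Mature sequences were found for 3 of the 6 names, and they are shown because the seed, bases 2 to 8 from the 5′ end and printed in capitals, sets the family that a miRNA belongs to, and because miR-206 and miR-133b are the pair from 1 transcript. They are RefSeq sequences, build GRCm38.p6, written 5′ to 3′.
mmu-miR-206-3p: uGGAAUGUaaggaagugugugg
mmu-miR-133b-3p: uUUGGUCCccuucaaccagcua
mmu-miR-499-5p: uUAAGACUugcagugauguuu
The miR-206 sequence lies at chr1:20679055-20679076 and that of miR-133b at chr1:20682834-20682855, both on the plus strand. Their hairpins, of 73 and 119 bases, stand 3686 bases apart, and both lie inside the span of Lincmd1, a long noncoding RNA gene of muscle. The miR-499 sequence lies at chr2:155622893-155622913 on the plus strand, inside the span of the myosin gene Myh7b. The seed of miR-206 is known to be that of miR-1 too, and the seed of miR-133b that of miR-133a. In the same table miR-6349 and miR-6382 also carry GGAAUGU. miR-1, miR-133a and miR-378 are named only.

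The values are quantification cycles (Cq), on which 1 cycle less stands for 1 log2 unit more of the miRNA. Levels between mice were compared as the global mean Cq of a mouse minus the Cq of the miRNA, called the normalized level here, in log2 units. The global mean ran between 31.65 and 32.86 cycles in the OS mice and between 30.59 and 32.84 in the control mice, and 333 to 387 of the named miRNAs were detected per mouse. A marker of red blood cell rupture, the Cq of miR-23a minus that of miR-451, averaged 4.19 ± 1.94 in OS mice and 5.77 ± 1.43 in control mice (SD, n = 8 and 6, exact permutation p = 0.117, two-sided). In lists of other cell types, with 12.6% of the 388 miRNAs tested called at an adjusted p of 0.05, 1 of 5 red blood cell assays, 1 of 5 white blood cell assays and 3 of 9 epithelial assays were lower in OS. The epithelial ones were miR-205 at -3.98, miR-141 at -2.23 and miR-203 at -1.73 on the log2 scale, and the median of that list was -1.24. In the remaining lists 0 of 6 platelet, 0 of 3 liver and 0 of 3 smooth muscle assays passed the test. Each mouse is a sample of its own, so a p-value measures the spread between mice.

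The main strands of miR-1, miR-133a and miR-133b were among the abundant miRNAs of the plasma. With the 276 miRNAs measured in every mouse ordered by mean Cq, miR-133b was number 19 from the most abundant, miR-1 number 29, miR-133a number 30 and miR-378 number 54. The other strand, miR-378*, stood at number 163, rno-miR-1 at 215 and rno-miR-133a* at 246. Cq values of different assays also hold their primers' efficiency, so the order is one of Cq and not of molecules. The Cq of miR-1 ran from 25.30 to 28.51 in OS mice and from 23.25 to 26.52 in control mice.

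miR-206 and miR-499 lay close to the limit of detection. miR-206, which marks skeletal muscle, had a Cq of 33.67 to 36.95 in the 8 OS mice and of 34.71 to 36.83 in 5 control mice. In control replicate 4 it was above the limit of 37 cycles, at 37.19, and was treated as missing. miR-499 was read at 34.00 to 36.71 cycles in 6 OS mice and at 30.94 to 36.85 cycles in all 6 control mice, and it was above the limit in OS replicates 10 and 18, at 37.95 and 37.60. miR-133a* was at 40, the highest value in the file, in OS replicate 17. The remaining 7 assays were measured in every mouse.

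**Figure D1:**
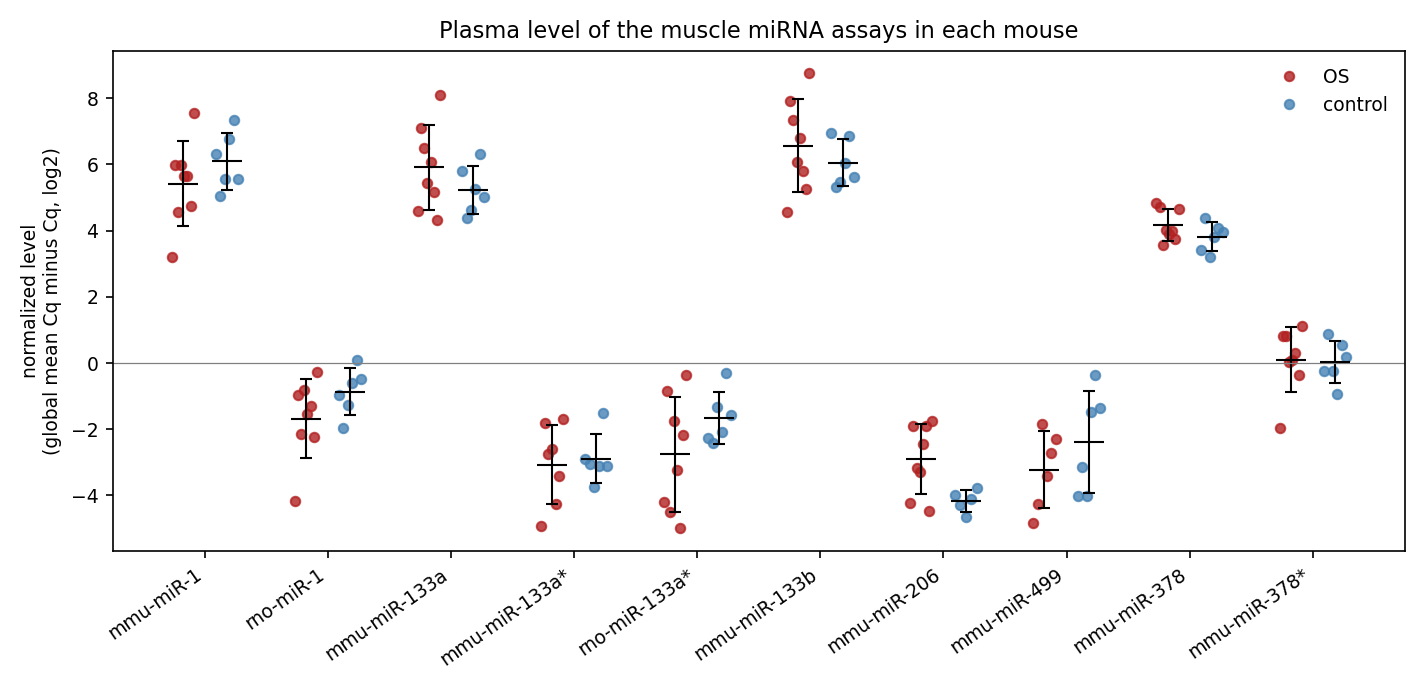
Normalized level (log2) of each of the 10 muscle miRNA assays, with OS mice in red on the left and control mice in blue on the right of each assay. Each point is a mouse, the long tick is the mean and the bar is the SD. The groups overlap in every assay, and the OS mice spread more widely than the control mice in miR-1, miR-133a and miR-133b.

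The OS mice were compared with the controls to ask whether muscle miRNAs in plasma differ in tumor-bearing mice. The groups overlapped in all 10 assays, and 2.84% of all miRNAs did not overlap. None of the 10 assays passed an adjusted p of 0.05 over all 388 miRNAs (limma), where 12.6% of all miRNAs did, 6.19% higher and 6.44% lower in OS. At an unadjusted p of 0.05, 1 of 10 passed, miR-206, against 30.7% of all miRNAs. Mean levels were higher in OS for 5 assays and lower for 5. The median difference over the 10 was -0.05, against -0.00 over all 388 miRNAs.

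miR-206 had the largest difference toward higher levels in OS. Its normalized level was lowest at -4.46, with a median of -2.82 and a highest value of -1.77, in OS mice, against -4.64, -4.12 and -3.76 in control mice. Of the 8 OS mice, 6 stood above every control mouse, while OS replicates 10 and 18 lay within the range of the controls. The means were -2.90 ± 1.06 in OS (SD, n = 8) and -4.16 ± 0.33 in controls (SD, n = 5), a difference of 1.26 ± 0.48 (SE) on the log2 scale or 2.40-fold, with a 95% interval of 0.25 to 2.28. It had an unadjusted p of 0.0176 and an adjusted p of 0.0978 by limma, and an exact permutation p of 0.0295, two-sided. The adjusted p passed the threshold without OS replicate 18, at 0.0380, with each panel scaled to its own mean, at 0.0425, and with a Cq limit of 40, at 0.0493. It was farther from the threshold with scaling to the reference miRNAs (difference 1.16, adjusted p = 0.220), in unscaled Cq (0.74, adjusted p = 0.465), with the haemolysis marker fitted (1.20, adjusted p = 0.286) and without the mice with a marker over 7 (1.10, adjusted p = 0.302, all limma).

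The main strands miR-133a and miR-133b had higher means in OS, while both assays of the minor strand miR-133a* had lower ones, and none of the 4 passed. miR-133a ran from 4.32 over a median of 5.76 to 8.09 in OS mice and from 4.37 over 5.13 to 6.32 in control mice. OS replicates 11, 12 and 19 lay above all controls and OS replicate 18 below them. Its difference was 0.68 ± 0.54 (SE, adjusted p = 0.422, limma, exact permutation p = 0.275). miR-133b ran from 4.57 over 6.44 to 8.74 in OS mice and from 5.32 over 5.84 to 6.94 in control mice, and again OS replicates 11, 12 and 19 were above every control, with OS replicates 10 and 18 below. Its difference was 0.52 ± 0.57 (SE, adjusted p = 0.569, limma, exact permutation p = 0.425).

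miR-1, which shares its precursor transcript with miR-133a, had a lower mean in OS than in controls. Its level ran from 3.21 over a median of 5.65 to 7.56 in OS mice and from 5.05 over 5.94 to 7.34 in control mice. OS replicates 10, 12 and 18 lay below all controls, and OS replicate 19 above them. The means were 5.42 ± 1.28 in OS and 6.10 ± 0.86 in controls (SD, n = 8 and 6), a difference of -0.68 ± 0.55 (SE, adjusted p = 0.431, limma, exact permutation p = 0.292). The rat-named assay gave -0.82 ± 0.51 (SE, adjusted p = 0.284, limma, exact permutation p = 0.164), with the same 3 OS mice below all controls.

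The other assays did not pass the test either. miR-499 averaged -3.23 ± 1.16 in OS and -2.39 ± 1.54 in controls (SD, n = 6 each), a difference of -0.83 ± 0.68 (SE, adjusted p = 0.435, limma). OS replicates 10 and 18, with miR-499 above the limit and so at a low level, are not in that OS mean. For miR-378 the difference was 0.36 ± 0.32 (adjusted p = 0.463), with 3 OS mice above all controls, and for miR-378* it was 0.07 ± 0.45 (adjusted p = 0.949, both limma, SE). The minor strand of miR-133a gave -0.17 ± 0.53 with the mouse name and -1.10 ± 0.67 with the rat name (SE, adjusted p = 0.863 and 0.270, limma). The intervals were wide: that of miR-1 spanned -1.84 to 0.48 and that of miR-133a -0.46 to 1.81, so changes of 1 log2 unit in at least 1 direction lie within both. With the haemolysis marker fitted beside the group, the difference of miR-499 was -0.06, that of miR-1 -0.35, that of rno-miR-1 -0.37 and that of rno-miR-133a* -0.53 (adjusted p = 0.989, 0.814, 0.792 and 0.755, limma).

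**Figure D2:**
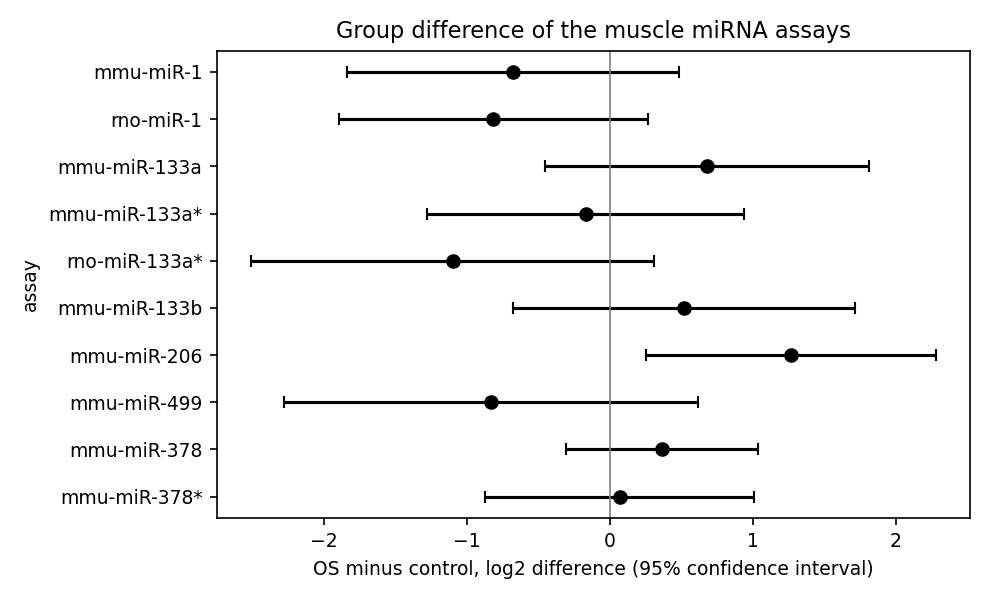
Difference in normalized level, OS minus control, for each muscle miRNA assay on a log2 scale, with its 95% confidence interval from limma. The interval of miR-206, at 0.25 to 2.28, lies above 0, and the other 9 intervals span 0.

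The OS mice differed widely in miR-1, miR-133a and miR-133b, and the control mice less so. In OS mice their SDs were 1.28, 1.29 and 1.40 in log2 units, against a median of 0.840 over the 276 miRNAs measured in every mouse. In control mice they were 0.864, 0.730 and 0.712, against a median of 0.683. Pooled over both groups, the SD within groups was 1.12 for miR-1, 1.09 for miR-133a and 1.17 for miR-133b. The median over the 276 miRNAs was 0.819, and 80.1%, 77.2% and 82.6% of them varied less. rno-miR-133a* varied most, with an SD of 1.42, which 92.0% of miRNAs stayed under. miR-378 was the steadiest, with an SD of 0.463, and only 8.70% of miRNAs varied less. Wells of the same miRNA on both panels, by comparison, differed with an SD of 0.126 to 0.217 cycles across the 14 mice.

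A few mice held most of the extremes. OS replicate 19 had the highest level of all 14 mice in 5 of the 10 assays, namely miR-1, miR-133a, miR-133b, miR-206 and miR-378*. Control replicate 13 had the highest in 4, which were rno-miR-1, both assays of miR-133a* and miR-499. OS replicate 10 had the lowest level in 5, namely miR-1, rno-miR-1, miR-133a*, miR-133b and miR-378*, and the highest of miR-378. This mouse also had the lowest haemolysis marker, 1.05, while that of OS replicate 19 was 4.42 and that of control replicate 13 was 7.21, the highest.

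Of the 45 pairs of muscle assays, 2 passed an adjusted p of 0.05 for their correlation across mice, miR-133a with miR-133b and the 2 assays of miR-1. Both pairs read the same or nearly the same miRNA, so a high r was likely from the start. No pair of more distinct muscle miRNAs passed. miR-133a and miR-133b, whose mature sequences are near copies so that their assays may share signal, correlated with r = 0.972 and rho = 0.974 over 14 mice. The permutation p was 1e-05 for both, the smallest that 100000 permutations can give, and it stayed at 0.0137 for r and 0.0273 for rho when adjusted over the 2735 relations of a muscle assay with any miRNA. Within groups, r was 0.979 in OS mice (exact permutation p = 9.92e-05) and 0.953 in control mice (exact permutation p = 0.00417), and without the 2 mice farthest from the median it was 0.938. Over all 37950 pairs of miRNAs measured in every mouse, 0.285% reached an r of 0.9.

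The mouse and rat assays of miR-1 followed each other with r = 0.931 and rho = 0.868 (permutation p = 1e-05 and 9e-05; adjusted p = 0.0137 and 0.123). The r was 0.959 within OS mice and 0.815 within control mice, and 0.896 without the 2 farthest mice. The rat assay was read about 7 cycles later: the Cq of mmu-miR-1 minus that of rno-miR-1 averaged -7.10 ± 0.36 in OS and -6.96 ± 0.50 in controls (SD, n = 8 and 6, exact permutation p = 0.579). These were also the only 2 of the 2735 relations, 0.0731%, that passed.

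miR-1 and miR-133a, from 1 precursor transcript, were less tightly linked. Over 14 mice r was 0.596 and rho 0.622 (permutation p = 0.0254 and 0.0199; adjusted p = 0.418 and 0.684). Within groups the relation was closer, with r = 0.733 in OS mice (exact permutation p = 0.0373) and 0.902 in control mice (exact permutation p = 0.0139), and r was 0.767 after subtracting group means. Over both groups together r was lower without extreme mice, at 0.339 without the 2 farthest from the median of miR-1 and at 0.433 without OS replicate 19. The r of 0.902 comes from control mice only and does not rest on that OS mouse. For miR-1 and miR-133b r was 0.647 and rho 0.648 (permutation p = 0.0130 and 0.0143; adjusted p = 0.415 and 0.684), and r was 0.280 without the 2 farthest mice and 0.516 to 0.777 when any 1 mouse was left out.

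miR-133b and miR-206, the pair from 1 transcript on chromosome 1 shown above, correlated with r = 0.679 and rho = 0.725 over 13 mice (permutation p = 0.0115 and 0.00660; adjusted p = 0.415 and 0.684). Within the 8 OS mice r was 0.749 (exact permutation p = 0.0369), and over all 13 it was 0.390 without the 2 farthest mice and 0.566 without OS replicate 19. miR-499, the heart and slow muscle miRNA, went with neither miR-133 assay over the 12 mice where it was under the limit. There r was -0.101 for miR-133a and -0.213 for miR-133b (permutation p = 0.756 and 0.504). The mice left out, OS replicates 10 and 18, had the lowest miR-133b and the lowest miR-133a of all mice. These r therefore lack mice that were low in both miR-499 and a miR-133 assay. With mmu-miR-1, miR-499 had r = 0.548 and rho = 0.476 (permutation p = 0.0674 and 0.121), and r = 0.337 without the 2 farthest mice. With rno-miR-1 it had r = 0.70 and rho = 0.720 (permutation p = 0.0111 and 0.00995; adjusted p = 0.415 and 0.684), and r = 0.491 without the 2 farthest mice.

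**Figure D3:**
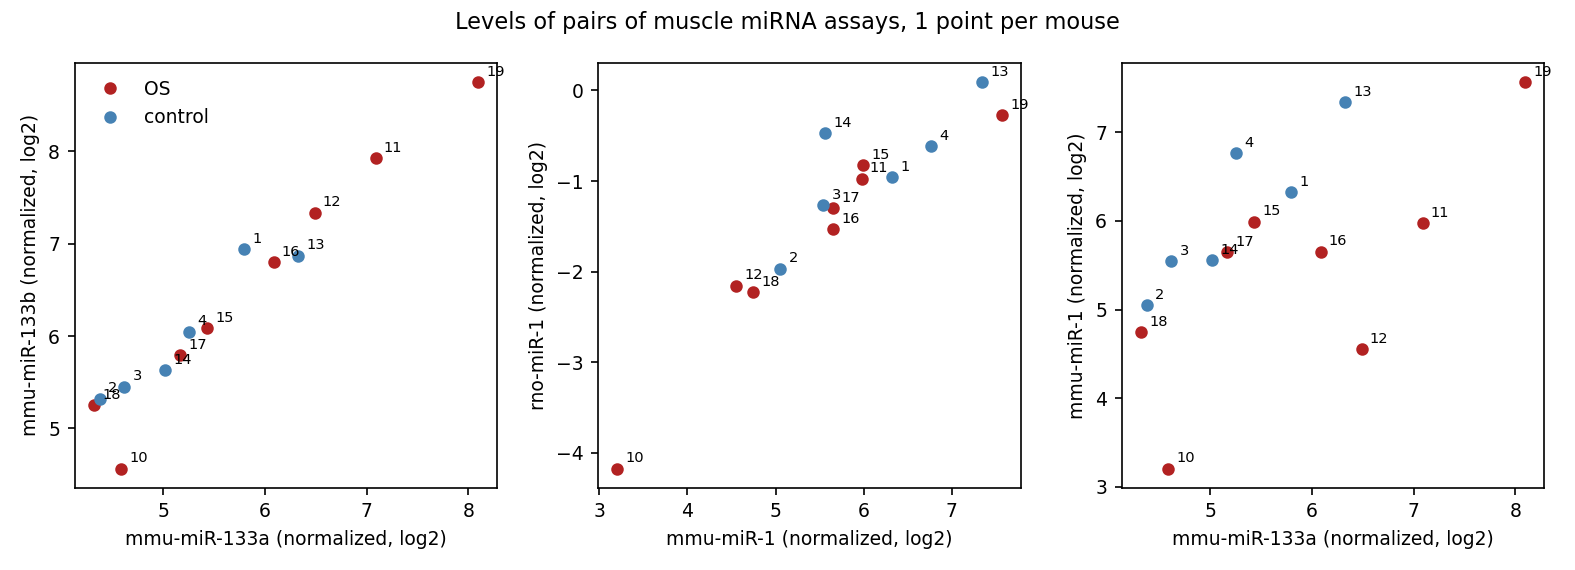
Normalized levels (log2) of miR-133b against miR-133a on the left, rno-miR-1 against mmu-miR-1 in the middle and mmu-miR-1 against miR-133a on the right. Each point is a mouse, OS in red and control in blue, with its replicate number. The points of the left panel lie near a line at r = 0.972 and those of the middle panel at r = 0.931. In the right panel, at r = 0.596, OS mice 11, 12 and 19 lie right of every control mouse. OS mice 10, 12 and 18 lie below every control mouse there.

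As a description over assays measured in every mouse, with group means subtracted, the 10 pairs among the 5 assays of miR-1, miR-133a and miR-133b had r between 0.53 and 0.97, with a median of 0.70. The median over all 37950 pairs was 0.02, and 11.1% of them had an r of 0.5 or more. Several of the 10 pairs were tied from the start, by 2 assays of miR-1, 2 near copies and the minor strand of miR-133a. Between miR-1 and the main strands miR-133a and miR-133b, r was 0.77 and 0.78 for mmu-miR-1 and 0.69 and 0.71 for rno-miR-1. miR-378, which is not restricted to muscle, had lower values: its 6 pairs with other muscle assays had r between -0.06 and 0.30. The minor strand miR-378* had r between 0.37 and 0.67 with the 5 assays of miR-1 and the miR-133 family, and 0.04 with miR-378. Between the strands of miR-378, r over 14 mice was 0.0499 with rho = 0.376 (permutation p = 0.866 and 0.186; adjusted p = 0.958 and 0.727), and 0.660 without OS replicate 10. The values of miR-378* with miR-1 also rested on few mice, with r = -0.263 for mmu-miR-1 and -0.0739 for rno-miR-1 without the 2 farthest mice. Within OS mice they were 0.790 and 0.862, and within control mice -0.314 and -0.209.

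**Figure D4:**
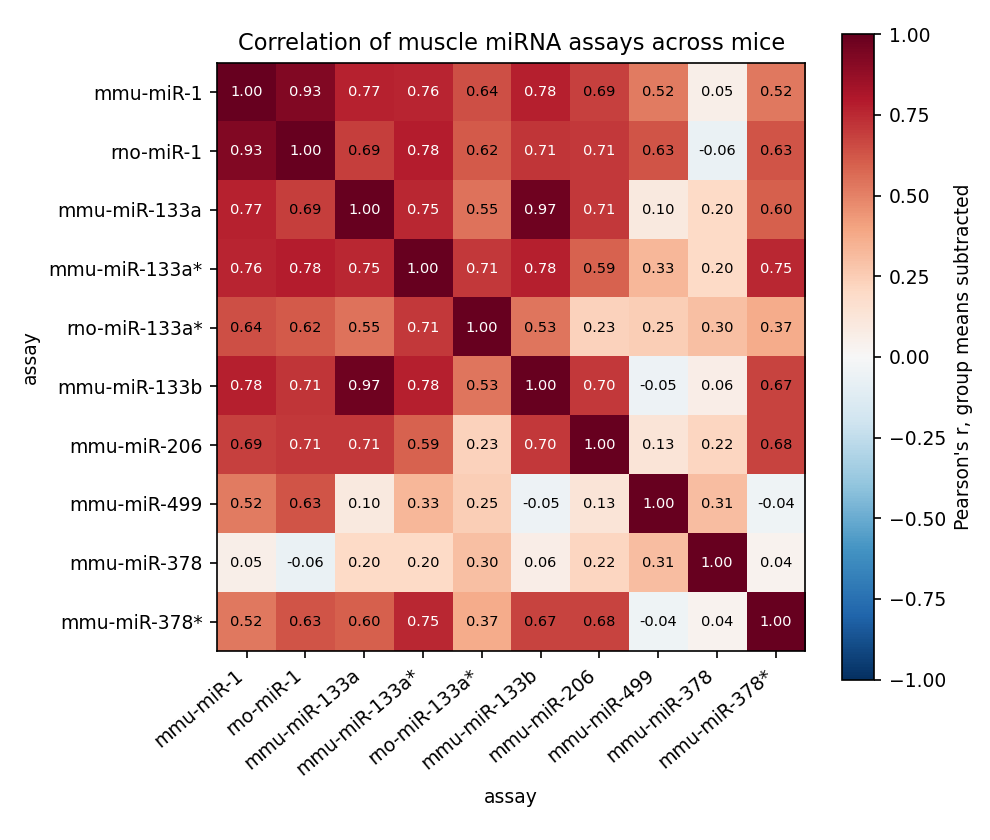
Pearson's r between the 10 muscle miRNA assays across mice after subtracting group means, on a colour scale from -1 (blue) to 1 (red), with 11 to 14 mice behind each cell. The assays of miR-1, miR-133a, miR-133b, miR-206 and miR-378* form a block of mostly positive r, and the row of miR-378 is paler. The row of miR-499 is also paler, except for r of 0.52 and 0.63 with mmu-miR-1 and rno-miR-1.

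The mean level of miR-1, miR-133a and miR-133b in a mouse was then set against each of the other 273 miRNAs measured in every mouse, with group means subtracted. The nearest 3 were other muscle assays, rno-miR-1 at r = 0.82, miR-378* at 0.63 and rno-miR-133a* at 0.61, while miR-378 was number 87 at 0.11. Of these, rno-miR-1 is another assay of miR-1, and rno-miR-133a* is the minor strand of the miR-133a hairpin. Both are thus tied to the mean from the start. For miR-378* the r was 0.866 within OS mice and -0.196 within control mice, whereas for rno-miR-1 it was 0.831 within OS mice and 0.784 within control mice. The first miRNAs not among the muscle names were miR-155 at 0.55, miR-330* and miR-128 at 0.50 each, and miR-1895 and rno-miR-224 at 0.49 each. At the opposite end stood miR-194 at -0.71 and miR-122 at -0.70, both abundant in liver, followed by miR-28 at -0.69 and by miR-1247 and miR-31 at -0.65 each. All these r are descriptions over the same 14 mice. They depend on scaling each mouse to its own mean, since the median r over all pairs was 0.423 in unscaled Cq and 0.0115 in normalized levels.

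Differences between 2 Cq values of the same mouse need no scaling, and here miR-1 and miR-133a parted between the groups. The Cq of miR-1 minus that of miR-133a ran from -0.56 over a median of 0.48 to 1.93 cycles in OS mice and from -1.52 over -0.81 to -0.53 cycles in control mice. Of the OS mice, 7 of 8 were above every control, OS replicate 15 being the exception at -0.56. The means were 0.49 ± 0.94 in OS and -0.87 ± 0.38 in controls (SD, n = 8 and 6), a difference of 1.36 cycles, so that miR-1 was 2.56-fold lower relative to miR-133a in OS. The exact permutation p was 0.00366, two-sided, and 0.0450 when adjusted over all 37950 pairs of miRNAs.

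The share of such pairs was not high among the muscle assays. At the adjusted threshold 1 of the 21 pairs measured in every mouse passed, against 9.38% of all pairs, and at an unadjusted exact p of 0.05 6 of 21 passed, against 33.1%. The groups overlapped in all 21 pairs, and 2.8% of all pairs did not overlap. The other assay of miR-1 gave a like difference, with the Cq of rno-miR-1 minus that of miR-133a at 7.59 ± 1.03 in OS and 6.09 ± 0.44 in controls, 1.5 cycles apart (exact permutation p = 0.00866, adjusted p = 0.0640 over all pairs). Against miR-133b the differences were 1.20 cycles for mmu-miR-1 (exact permutation p = 0.0130, adjusted p = 0.0760) and 1.34 cycles for rno-miR-1 (exact permutation p = 0.0157, adjusted p = 0.0824). These pairs share assays and are not independent of each other.

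Against miR-206, which has the same seed, miR-1 was set as 1 of the 45 pairs of muscle assays. The Cq of miR-1 minus that of miR-206 averaged -8.31 ± 0.82 in OS and -10.12 ± 0.88 in controls (SD, n = 8 and 5), a difference of 1.81 cycles or 3.50-fold (exact permutation p = 0.00233, two-sided). Of the OS mice 7 of 8 were above every control. miR-206 lay near the limit of detection and was missing in 1 control mouse. The pair was therefore not among those adjusted over all pairs, of which 6.16% had an exact p as small and 33.1% one under 0.05.

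Within the miR-133 family the main strands kept closely together. The Cq of miR-133a minus that of miR-133b averaged 0.66 ± 0.30 in OS and 0.82 ± 0.22 in controls (SD, n = 8 and 6, exact permutation p = 0.328), and its SD within groups of 0.267 cycles was smaller than that of all but 0.0422% of all pairs, whose median was 1.19. The minor strand differed from them more. The Cq of miR-133a minus that of rno-miR-133a* averaged -8.66 ± 1.49 in OS and -6.89 ± 0.72 in controls (SD, n = 8 and 6), a difference of -1.78 cycles (exact permutation p = 0.0223, adjusted p = 0.0986 over all pairs). Against miR-133b, rno-miR-133a* differed by 1.62 cycles (exact permutation p = 0.0380, adjusted p = 0.130), and miR-133a minus mmu-miR-133a* differed by -0.96 cycles (exact permutation p = 0.0484, n = 7 and 6).

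The ratio of miR-1 to miR-133a moved with the haemolysis marker. Over 14 mice the Cq difference of mmu-miR-1 and miR-133a had r = -0.717 and rho = -0.604 with the marker (permutation p = 0.00405 and 0.0246; adjusted p = 0.0257 and 0.106 over 37401 pairs of miRNAs, of which 23.5% passed for r). Within OS mice r was -0.837 (exact permutation p = 0.0104) and within control mice 0.198 (exact permutation p = 0.754), and without the 2 mice farthest from the median it was -0.606. OS replicates 10, 12 and 11, with the lowest markers, had the highest Cq differences, 1.38, 1.93 and 1.11. The group difference was 0.921 cycles after fitting the marker beside the group (permutation p = 0.0235), against 1.36 without it. For rno-miR-1 and miR-133a r was -0.780 and rho -0.662 (permutation p = 0.00082 and 0.0116; adjusted p = 0.0104 and 0.0703), and the group difference with the covariate was 0.939 cycles (permutation p = 0.0225). Against miR-133b the differences with the covariate were 0.816 and 0.834 cycles (permutation p = 0.0640 and 0.0587). Without the 2 mice with a marker over 7, control replicates 3 and 13, the differences against miR-133a were 1.305 cycles for mmu-miR-1 (exact permutation p = 0.0263) and 1.48 cycles for rno-miR-1 (exact permutation p = 0.0283).

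**Figure D5:**
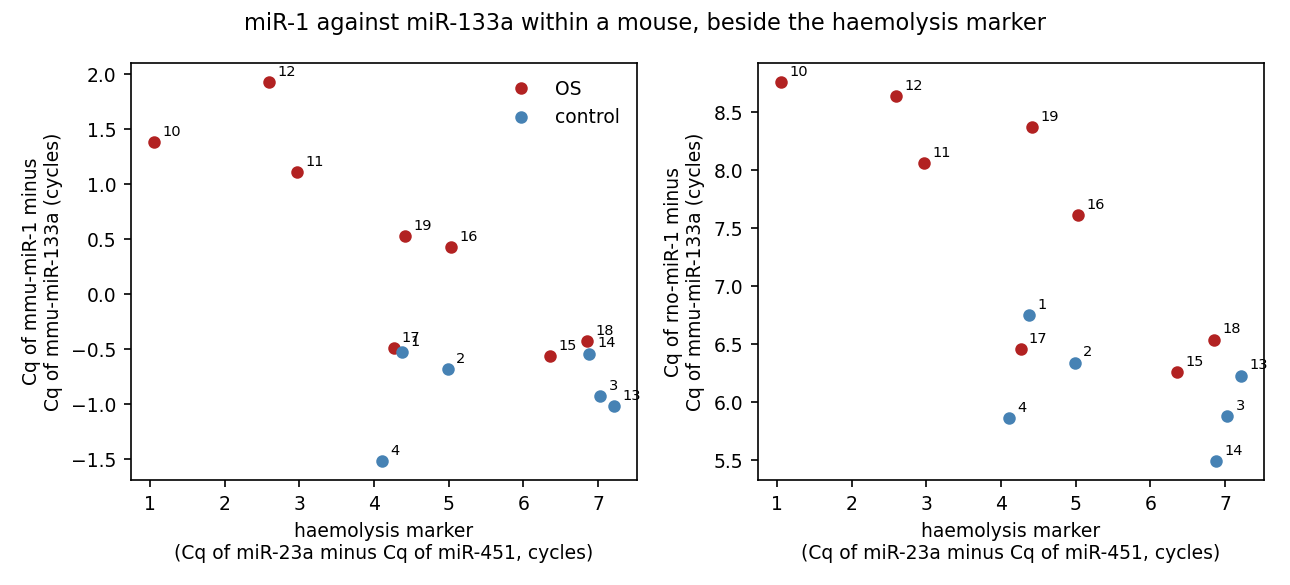
Cq of miR-1 minus Cq of miR-133a (cycles), from the mouse assay on the left and the rat assay on the right, against the haemolysis marker (Cq of miR-23a minus Cq of miR-451, cycles), with OS mice in red, control mice in blue and replicate numbers. OS replicates 10, 11 and 12 lie at the upper left, below a marker of 3, and the control mice lie low from 4.11 to 7.21.

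The levels of the single muscle miRNAs were less closely tied to the marker. None of the 10 assays passed an adjusted p of 0.05 over the 277 miRNAs set against it, where 29.6% did. At an unadjusted permutation p of 0.05, 3 of 10 passed, against 41.5% of all miRNAs. They were rno-miR-1 with r = 0.574 and rho = 0.407 (permutation p = 0.0293 and 0.152), rno-miR-133a* with r = 0.538 and rho = 0.534 (0.0482 and 0.0522 by permutation) and miR-499 with r = 0.592 and rho = 0.510 (0.0450 and 0.0953 by permutation), which have adjusted p for r of 0.0821, 0.116 and 0.114. The r of miR-1 was 0.413 and that of miR-133a -0.229 (permutation p = 0.142 and 0.428; rho = 0.209 and -0.213). Without the 2 farthest mice r was -0.623 for miR-133a, -0.659 for miR-133b, -0.730 for miR-206 and 0.722 for miR-499. That of rno-miR-1 was 0.0505, and all assays not named here lay between -0.420 and 0.322.

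Other miRNAs with roles in muscle, which are not restricted to it, were counted as a list of 26 names with 25 assays. 2 assays were higher in OS, 1 was lower and 22 did not pass, with a median difference of -0.35. The higher ones were both assays of miR-214, which takes part in muscle and skeletal development, with differences of 2.22 ± 0.71 and 2.34 ± 0.69 for the mouse and rat names (SE, adjusted p = 0.0457 and 0.0347, limma). The mouse assay averaged 2.42 ± 1.87 in OS and 0.19 ± 0.79 in controls (SD, n = 8 and 6). The lower one was miR-181c, at -1.31 ± 0.38 (SE, adjusted p = 0.0320, limma), which averaged -0.75 ± 0.42 in OS and 0.56 ± 0.89 in controls (SD, n = 8 and 6). The 3 of 25 assays that passed stand against 12.6% of all miRNAs.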

How the data were processed

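Plasma RNA was measured on a pair of Exiqon mouse panels, and the authors deposited Cq values from before normalization, with 768 wells per mouse. Their methods name GenEx Pro, interplate calibration, removal of outliers, a limit of Cq 37 and global mean normalization. Whether the deposited values precede the calibration is not stated. Wells were named through well positions in a deposited table of the authors' fold changes and p-values, whose comparison columns were not used. All columns of per-sample values were used.

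Values over Cq 37 were treated as missing, a miRNA was dropped if 75% or more of its values were missing, and each mouse was centred on its mean Cq over the 388 left. For that mean only, missing values were filled with the group mean or Cq 38. Groups were compared by limma 3.58.1 (R 4.3.3, two-sided) with Benjamini-Hochberg adjustment over 388 miRNAs. Single values, Cq differences and correlations were compared by exact permutation tests or 100000 permutations with scipy 1.17.1 and numpy 2.4.6 in Python 3.11.15, adjusted over all miRNAs or pairs. Plots were drawn with matplotlib 3.10.9. The code was tested on simulated data.

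The miRNAs named are all wells of the 8 names, the 5 most and 5 least like the mean of miR-1, miR-133a and miR-133b, and the miRNAs of the list with roles in muscle that passed the threshold. Members and lists were chosen with earlier results of these data known. Precision comes from the spread between mice, since no molecules are counted behind a Cq. Alternatives were other scalings, Cq limits, filters and tests, an added covariate (the haemolysis marker) and fits without single mice.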

Additional observations from a re-analysis of the deposited data

Results flagged for a closer look

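The Cq of miR-133a minus that of miR-133b was -0.02 in OS replicate 10, against 0.63 to 0.94 in the other 7 OS mice, a gap of 0.677 of the whole range of the 8. It was the only value flagged among 30 groups of values examined. Chance alone flags about 1 in 20 such groups, so 1 flag among those 30 is not beyond that share. The count does not cover the Cq differences that follow, which were not flagged but also had a value far from their group. That of mmu-miR-133a* minus rno-miR-133a* was -1.77 in OS replicate 12, against 0.74 to 1.35 in the other OS mice with both values. That of miR-378 minus miR-378* was -6.80 in OS replicate 10, against -4.09 to -2.77 in the other OS mice. OS replicate 10 had the lowest haemolysis marker, 1.05, and the lowest level in 5 of the 10 muscle assays. The cause was not tested.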

How the results depend on the processing

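The number of miRNAs called over the whole screen, 49 with 24 higher and 25 lower in OS, was 21 (4 and 17) with unscaled Cq, 29 (14 and 15) with a Cq limit of 35, 24 (10 and 14) with the methods' t-test, 17 (11 and 6) with the haemolysis marker as covariate and 20 (10 and 10) without the mice with a marker over 7. It had 11 lower with scaling to 3 reference miRNAs and 14 lower with scaling to the median. Leaving out each mouse in turn gave 20 to 73 called, 13 to 35 higher and 7 to 38 lower, and 0 to 1 muscle assays, with the count called over 1.5 times lower without control replicates 3, 13 or 14 or OS replicates 11 or 12. Muscle assays called were 1 with each panel scaled to its own mean and with a Cq limit of 40. Unscaled Cq shifts the median of all miRNAs by -0.45.

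Signs turned only for small differences. miR-133a* was 0.35 with a Cq limit of 35, 0.0182 with the covariate and -0.40 to 0.15 leaving out a mouse. miR-378 was -0.0708 unscaled, and miR-378* was -0.37 with panel scaling, -0.365 unscaled and -0.12 to 0.37 leaving out a mouse.

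The Cq difference of miR-1 and miR-133a, with either assay, kept its direction and an unadjusted p under 0.05 in every alternative run, ranging over 1.15 to 1.51 and 1.33 to 1.69 cycles when a mouse was left out. Against miR-133b it was 0.816 and 0.834 with the covariate, 1.085 and 1.26 without the mice over 7, alternatives chosen after seeing the data, and 0.965 to 1.35 and 1.16 to 1.54 leaving out a mouse.

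Correlation of miR-1 was 0.339 with miR-133a and 0.280 with miR-133b without the 2 farthest mice, 0.825 with miR-133b within controls, and 0.433 to 0.711 and 0.516 to 0.777 leaving out a mouse, with p over 0.05 without OS replicate 19 and, for miR-133b, without OS replicate 10. miR-133b with miR-206 was 0.390 without the 2 farthest and 0.566 to 0.825 leaving out a mouse, with p over 0.05 without OS replicate 19. miR-378 with miR-378* was -0.202 with panel scaling, -0.227 within OS, 0.645 without the 2 farthest, -0.00055 without the mice over 7 and -0.0997 to 0.660 leaving out a mouse.

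With the marker, the r of miR-1 was -0.0195 within controls and -0.153 without the 2 farthest mice, miR-133a 0.0792 within controls, miR-133b 0.00543 with reference scaling and 0.0158 unscaled. Without the 2 farthest mice miR-133a* was -0.210 and miR-378* -0.420, and leaving out a mouse they ran from -0.196 to 0.380 and from -0.318 to 0.376. The unadjusted p of rno-miR-1, rno-miR-133a* and miR-499 with the marker was over 0.05 in 4, 10 and 9 of 14 fits that each left out a mouse. No paired analysis was possible because the labels do not say which mice were littermates. Values near the limit of 37 cycles, those of miR-206, miR-499 and miR-133a*, are the least precise.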
